A study of Mus musculus with 2 samples.

Results

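The macrophages highest in major histocompatibility complex (MHC) class II were 373 cell barcodes of mouse MC38-OVA tumours, 5% of 7458 macrophage barcodes among 18460 barcodes in all. The macrophage barcodes, called the base here, had at least 1 unique molecular identifier (UMI, a tag that counts 1 captured RNA molecule) of Ptprc, which encodes CD45. They also had at least 3 UMIs summed over the complement genes C1qa, C1qb and C1qc, none of the T cell genes Cd3d, Cd3e and Trac, and none of Flt3 and Ccr7, which mark dendritic cells. The members were the 5% of this pooled base with the highest UMIs per 10000 summed over H2-Aa, H2-Ab1, H2-Eb1 and Cd74. These 4 genes chose the members, so their levels are a description.

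The members came from 2 libraries, 1 per diet, of wild-type mice that carried MC38-OVA tumours, a colon adenocarcinoma line that expresses ovalbumin. The Sitagliptin library represents the diet labelled Sitagliptin, a drug that inhibits the dipeptidyl peptidase DPP4, and the Control library the diet labelled Control. Cells positive for CD45 were enriched from the tumours on magnetic beads and sequenced with a droplet 5′ kit; how many mice each library pooled was not stated. The Sitagliptin library held 159 members of 4187 base barcodes, and the Control library 214 of 3271. With 1 library per diet no difference between diets has a replicate check, and the diet, the mice and the library cannot be told apart. Members against the other macrophages is no test either, since the same barcodes were sorted by their own counts. All intervals below are 95% intervals that cover counting error only.

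The 2 libraries held 9766 and 8694 barcodes with 76788699 and 64139749 UMIs for Sitagliptin and Control, and every barcode had at least 2001 UMIs. Members had a median of 7192 UMIs in the Sitagliptin library and 5244 in the Control library, against 6717.5 and 5613 in the rest of the base. The libraries shared 132 barcode sequences, which 2 Sitagliptin and 3 Control members carried. Mitochondrial transcripts were a median 0.558% and 0.493% of member UMIs, against 0.609% and 0.570% in the rest.

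MHC class II molecules present peptides from ingested and membrane proteins to CD4+ T cells. H2-Aa encodes an alpha chain, and H2-Ab1 and H2-Eb1 encode beta chains, of which H2-Ab1 pairs with H2-Aa. The pair assembles with the invariant chain Cd74, which fills the groove and guides the complex to the endosome. There cathepsin S trims the invariant chain and H2-DM exchanges what is left for peptide. Transcription of the whole set needs the coactivator Ciita, which interferon gamma induces in macrophages, on a platform of the RFX complex at the X box and NF-Y at the Y box of the promoters. In tumours, macrophages rich in class II are commonly contrasted with class II-poor ones that carry resident, lipid-handling or wound-healing genes.

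The promoters of 4 class II genes are shown, 2 scored by the rule (H2-Aa and H2-Eb1) and 2 of peptide loading outside it (H2-DMb1 and H2-DMb2), because their transcripts were high in the same barcodes. H2-Aa carries the Y box letters alone, and the other three carry both boxes. Each line gives 100 bases, 5′ to 3′ on the gene's strand in build GRCm38.p6, ending 9 to 51 bases before the RefSeq transcription start. The X box core (AACNGATG) and the Y box core (ATTGG) are in capitals where they read on that strand. H2-Eb1 also holds a Y box core on the other strand, left in small letters. H2-Aa lies at chr17:34287832-34287931 on the minus strand. On the plus strand, H2-Eb1 lies at chr17:34305748-34305847, H2-DMb1 at chr17:34153070-34153169 and H2-DMb2 at chr17:34145099-34145198.
H2-Aa: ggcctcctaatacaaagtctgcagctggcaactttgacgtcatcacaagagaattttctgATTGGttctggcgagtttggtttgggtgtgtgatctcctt
H2-Eb1: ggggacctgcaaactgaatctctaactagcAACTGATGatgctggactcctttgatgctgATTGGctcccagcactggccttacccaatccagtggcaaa
H2-DMb1: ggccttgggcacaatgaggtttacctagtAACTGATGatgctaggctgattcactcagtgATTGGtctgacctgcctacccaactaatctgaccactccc
H2-DMb2: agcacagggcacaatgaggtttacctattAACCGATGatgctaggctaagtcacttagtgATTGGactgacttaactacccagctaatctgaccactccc

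The cores were searched on both strands of the 250 bases before 32851 RefSeq starts; they do not overlap each other in the 4 stretches. The X box core was in 652 of these windows (1.98%), and the Y box core in 11120 (33.8%). An X core followed by a Y core 20 to 26 bases on was in 5 windows (0.0152%), those of H2-Eb1, H2-Eb2, H2-DMb1, H2-DMb2 and BC051142. The cores were 22 bases apart in H2-Eb1 and H2-Eb2 and 23 bases apart in H2-DMb1 and H2-DMb2. H2-Aa, H2-Oa and H2-Ob had a Y core 48, 43 and 57 bases before the start and no match to these X letters, which says only that the letters are not in this window. Of 19 class II genes looked up, 16 had an entry; H2-Ab1, Ciita and Rfxap did not.

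The 4 scored genes were each several times as high in members as in the rest of the base. H2-Aa was at 8027 CPM (counts per 1000000 UMIs of the set of barcodes) in Sitagliptin members and 8060 in Control members, against 1380 and 1434 in the rest of the 2 libraries. H2-Ab1 was at 3807 and 3762 CPM against 784 and 747. H2-Eb1 was at 6870 and 6858 CPM against 1159 and 1125. Cd74 was at 31642 and 33779 CPM against 6578 and 7328, and gave 62.8% and 64.4% of the scored UMIs in members, against 66.4% and 68.9% in the rest.

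No member was at 0 for any of the 4 genes. H2-Aa had a median of 79.5 and 78.9 UMIs per 10000 in Sitagliptin and Control members, against 8.06 and 8.34 in the rest, where 736 and 591 barcodes had no H2-Aa UMI. The scored genes together had a median of 489 and 518 UMIs per 10000 in members, with a highest member of 725 and 937, against 62.2 and 64.8 in the rest. They took 5.03% and 5.25% of all member UMIs, against 0.990% and 1.06% in the rest. The score had no gap at the threshold: the members just inside lay between 429.843 and 430.844 per 10000 and the barcodes just outside between 427.143 and 429.028.

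**Figure D1:**
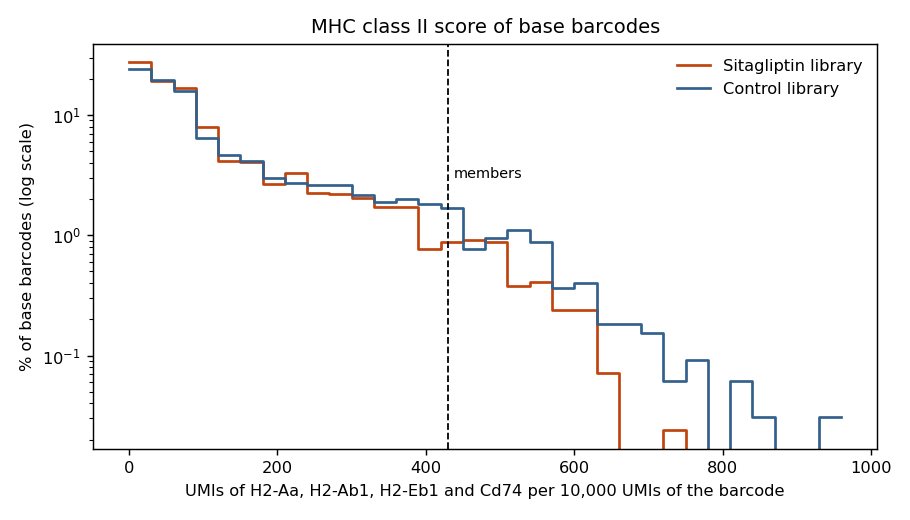
Share of base barcodes (y axis, percent on a log10 scale) by the UMIs per 10000 summed over H2-Aa, H2-Ab1, H2-Eb1 and Cd74 (x axis), for the Sitagliptin and the Control library, with the threshold that chose the members as a dashed line. The members are the upper tail, 159 barcodes of the Sitagliptin library and 214 of the Control library, with no gap in either library where the line falls.

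The label was checked against genes that mark macrophages and other cells. C1qa, a gene of the gate, was at 1246 and 1539 CPM in Sitagliptin and Control members against 1307 and 1625 in the rest. Csf1r, the receptor for the macrophage growth factor CSF1 and no part of the rule, had a UMI in 146 of 159 Sitagliptin members (91.8%) and 194 of 214 Control members (90.7%), against 80.1% and 76.3% of the rest. After thinning each barcode to 2000 UMIs, the share with Csf1r was 66.7% and 65.9% of members and 50.3% and 50.2% of the rest, against 2.63% and 4.10% of tumour-like barcodes without Ptprc. Adgre1, which encodes F4/80, was lower, at 24.5 and 19.6 CPM in members against 52.7 and 48.6 in the rest.

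Members did not sit at the edge of the C1q gate. Between 3 and 5 C1q UMIs, the least that the gate admits, were found in 12 Sitagliptin members (7.55%) and 19 Control members (8.88%), against 19.54% and 19.7% of the rest. The median C1q level was 46.7 and 53.1 UMIs per 10000 in members and 33.6 and 37.9 in the rest.

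Dendritic cell transcripts were present in some members, and more often in the Sitagliptin library. At least 1 UMI of Zbtb46, Cd209a, Xcr1 or Clec9a was in 30 of 159 Sitagliptin members (18.9%, exact interval 13.1 to 25.8) and 12 of 214 Control members (5.61%, 2.93 to 9.59), against 5.51% and 4.06% of the rest. Of these, 27 and 10 also had a Csf1r UMI. At least 2 such UMIs were in 6 Sitagliptin members and in 0 Control members, which allows up to 1.71%. The summed dendritic cell list was at 8.02 and 4.38 UMIs per 10000 in members and 2.49 and 2.11 in the rest. Its defining genes Zbtb46 and Xcr1 had 12 and 5 UMIs in Sitagliptin members and 0 and 1 in Control members. The part of these barcodes in the results below was not tested. Ratios without them were computed only for the gene lists and the leading genes, and some that moved are given. Other genes, such as Dpp4, H2-Oa, H2-Ob, Itgax and Clec9a, have no such ratio.

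Neutrophil and tumour transcripts were found in a smaller share of members than of the rest, and B and T cell transcripts were rare in both. No member had a UMI of the B cell genes Cd79a or Ms4a1, which allows up to 2.29% and 1.71% of Sitagliptin and Control members, against 0.447% and 0.360% of the rest. T cell genes Cd3g, Trbc1 or Trbc2 were in 5.03% and 0.935% of members against 7.37% and 7.56% of the rest. The neutrophil genes S100a8 or S100a9 were in 4.40% and 2.34% against 10.7% and 11.7%. Sparc or Cald1, genes of the tumour cells and stroma, were in 9.43% and 12.6% of members against 25.1% and 33.0% of the rest. Tumour and T cell transcripts were thus found in a larger share of the rest. Their part in any gene that is lower in members was not tested. Values without barcodes carrying tumour, T cell or NK cell markers stand beside several of these genes.

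Among the genes of peptide loading and class II control outside the rule, 8 of 16 measured genes were over 1.5 times as high in members in both libraries, and 1 was lower by that much. The 8 include H2-Eb2, with 2 and 1 UMIs in Sitagliptin and Control members, too few for a direction. They also include H2-Oa, whose interval in the Control library (0.926 to 6.42) includes 1. The background over all 10772 genes with at least 50 UMIs was 3.47% higher and 14.2% lower in both libraries, and 3.88% and 6.31% over the 3453 genes with at least 1000 UMIs in the base of each library. The median log2 ratio of the 16 genes was 0.73 in the Sitagliptin library and 0.63 in the Control library, against -0.13 and -0.14 over all genes. The members were chosen on 4 genes of the same pathway, so nothing further is read from this count.

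Ciita, the coactivator of class II transcription, was at 50.7 and 53.3 CPM in Sitagliptin and Control members, against 13.04 and 10.7 CPM in the rest. That is 3.89 times (2.94 to 5.07) and 4.98 times (3.74 to 6.56) the level of the rest, and 47 and 49 members had a Ciita UMI. Both libraries gave about the same level in members. The RFX subunits that bind the X box had few UMIs: Rfx5 had 2 and 5 in members, and Rfxap was 1.09 and 0.804 times the rest with intervals that include 1.

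H2-DMb1 encodes the beta chain of H2-DM, and its 2 near-identical mouse copies mean that reads may have been split with H2-DMb2. H2-DMb1 was at 700 and 773 CPM in Sitagliptin and Control members and 173 and 182 CPM in the rest, ratios of 4.05 (3.77 to 4.35) and 4.24 (3.95 to 4.55). A UMI was found in 155 of 159 and 197 of 214 members. At 2000 UMIs per barcode the share with H2-DMb1 was 74.8% and 79.4% of members, 23.7% and 25.2% of the rest and 4.33% and 4.44% of tumour-like barcodes. H2-DMb2 was at 46.7 and 29.0 CPM in members against 8.89 and 8.95 CPM in the rest. H2-DMa, the alpha chain, was at 442 and 461 CPM against 180 and 191 CPM, ratios of 2.46 and 2.42.

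H2-DO, made of H2-Oa and H2-Ob, restrains H2-DM and is best known from B cells. H2-Oa had 22 UMIs in Sitagliptin members and 6 in Control members, ratios to the rest of 11.0 (6.33 to 18.4) and 2.68 (0.926 to 6.42). H2-Ob was 5.15 and 3.17 times the rest. The B cell markers named above were at 0 in members, while Cd79b of the same list had 0 and 4 UMIs and Cd22 had 3 and 5. H2-Eb2 had 2 and 1 UMIs in members, too few for a direction.

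The proteases of the pathway differed in direction. Ctss, which encodes cathepsin S, was at 3828 and 3635 CPM in Sitagliptin and Control members, against 2845 and 2801 CPM in the rest, ratios of 1.35 and 1.30. Ctsl, which encodes cathepsin L, was at 599 and 702 CPM against 1435 and 1801 CPM, ratios of 0.418 and 0.390. Lgmn (legumain) was also lower, at 0.688 and 0.772 times the rest. Ifi30, the thiol reductase GILT that unfolds antigens in the lysosome, was at 878 and 934 CPM against 517 and 633 CPM. March1, a ubiquitin ligase that removes class II molecules and CD86 from the surface, was 1.52 and 1.62 times the rest, while the related March8 was 0.633 and 0.990 times.

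Of 12 measured costimulatory and T cell ligand genes, 4 were over 1.5 times as high in members in both libraries, and none was lower by that much, with list medians of 0.44 and 0.64 log2 in Sitagliptin and Control. Cd80 was at 211 and 212 CPM in members against 120 and 124 CPM in the rest, and Cd86 was 1.28 and 1.55 times the rest. Cd40, the receptor through which T cells license presenting cells, was 2.12 and 2.13 times. The inhibitory ligands were higher as well: Cd274 (PD-L1) was at 470 and 547 CPM against 276 and 320 CPM, and Pdcd1lg2 (PD-L2) was 2.06 and 2.61 times the rest. MHC class I genes were higher by less, with list medians of 0.50 and 0.44 and 5 of 15 past 1.5-fold in both libraries (H2-T23, Tap1, Tap2, Tapbp and Psmb9). B2m was 1.25 and 1.16 times the rest.

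Genes induced by interferon gamma were above the rest in nearly every case. Of 20 measured genes, 19 were higher in both libraries, 6 of them past 1.5-fold, among them Gbp2b, Gbp5, Irgm1, Fgl2 and Cxcl9. The list medians were 0.54 and 0.52 log2 in Sitagliptin and Control. As a background for direction in this and the other lists, each library was also read over all genes with at least 20 UMIs. Of 12292 such genes in the Sitagliptin library, 39.97% were higher in members and 60.03% lower. Of 12366 in the Control library, 38.92% were higher and 61.08% lower. Cxcl9, a chemokine that draws CXCR3+ T cells, was at 1174 and 799 CPM in members against 531 and 397 CPM in the rest, ratios of 2.21 (2.10 to 2.33) and 2.02 (1.89 to 2.15). It was found in 104 of 159 and 120 of 214 members. Irf1 was 1.21 and 1.10 times the rest.

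Genes typical of type I interferon were split. Of 21 genes, Isg15, Ifi44, Zbp1 and Ifi213 were past 1.5-fold higher in both libraries and Ifit3b and Rsad2 past 1.5-fold lower. The list medians were 0.23 in both. For Ifi44 the Sitagliptin interval (0.945 to 3.02) includes 1. Ifit3b had 3 and 4 UMIs in Sitagliptin and Control members, and its Control interval (0.127 to 1.24) includes 1. Isg15, a ubiquitin-like modifier, was 1.89 and 2.16 times the rest in Sitagliptin and Control, while the antiviral gene Rsad2 was 0.638 and 0.659 times. Ifit3 was 0.598 and 0.705 times.

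**Figure D2:**
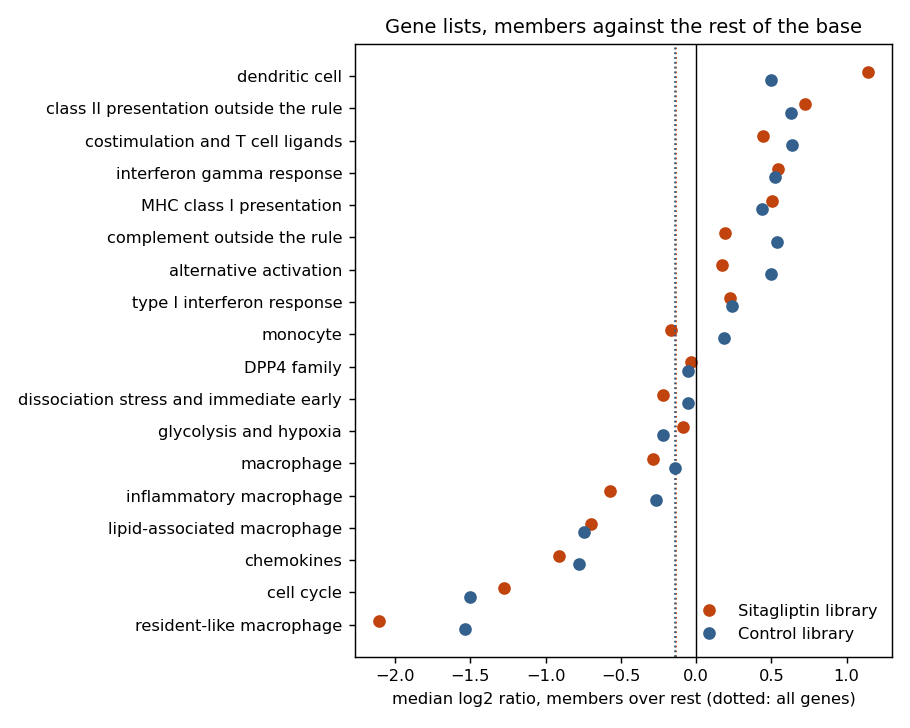
Median log2 ratio of members over the rest of the base (x axis) for each gene list of macrophage states, pathways and dendritic cells (y axis), with 1 point for the Sitagliptin and 1 for the Control library and dotted lines at the median of all genes. Class II genes outside the rule (0.73 and 0.63), interferon gamma genes (0.54 and 0.52) and MHC class I genes (0.50 and 0.44) lie right of the dotted lines, and resident-like (-2.11 and -1.54), lipid-associated (-0.70 and -0.74) and cell cycle genes (-1.28 and -1.50) lie left of them.

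The general macrophage genes outside the gate had list medians of -0.29 and -0.14 in the Sitagliptin and Control library. Adgre1, Maf, Mertk and Ms4a7 were past 1.5-fold lower in both, and none of the 14 was past 1.5-fold higher in both. Csf1r was at 532 and 567 CPM in members against 381 and 386 CPM in the rest. Mertk, a receptor for the clearance of dying cells, was at 19.8 and 31.3 CPM against 55.2 and 56.7 CPM.

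Genes of resident-like macrophages were the furthest below the rest among the macrophage states. Of 14 measured genes 12 had a ratio in both libraries, all lower, 11 of them past 1.5-fold. The list medians were -2.11 and -1.54 log2 in Sitagliptin and Control. The 11 include Lyve1, with 3 and 1 UMIs in members and intervals that include 1. Pf4, a platelet-type chemokine that such macrophages also make, was at 73.6 and 110 CPM in members against 946 and 1126 CPM in the rest. F13a1, a clotting factor gene, was at 38.0 and 65.8 CPM against 318 and 302 CPM. Mrc1, the mannose receptor CD206, was at 388 and 399 CPM against 776 and 624 CPM. Without barcodes carrying tumour, T cell or NK cell markers the list medians were -2.50 and -2.11.

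Lipid-associated macrophage genes were lower too, with 8 of 15 past 1.5-fold in both libraries and medians of -0.70 and -0.74. Spp1 (osteopontin) was at 689 and 846 CPM in Sitagliptin and Control members against 2362 and 3264 CPM in the rest. Gpnmb was 0.243 and 0.299 times the rest, and the lysosomal protease genes Ctsb and Ctsd were 0.488 and 0.597, and 0.389 and 0.407 times. Arg1, the arginase of alternatively activated and tumour macrophages, was at 900 and 1126 CPM against 2547 and 2545 CPM. Mgl2, a lectin often used beside Arg1 as an alternative activation marker, went the other way, at 329 and 247 CPM against 125 and 82.1 CPM.

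Within the inflammatory list the members combined high Il1b with lower levels of several chemokines. Il1b, which encodes interleukin 1 beta, was at 4189 and 4343 CPM in Sitagliptin and Control members against 1987 and 2176 CPM in the rest, ratios of 2.11 and 1.995. Tnf was 1.52 and 1.51 times the rest. Cxcl3, a neutrophil attractant, was at 59.4 and 39.96 CPM against 140 and 177 CPM, and Cxcl1, Mmp8, Il6 and Ccl3 were also past 1.5-fold lower in both libraries. Of these, Il6 had only 2 and 2 UMIs in members and Mmp8 only 1 and 2. Cxcl2, the most abundant chemokine of the list, was nearer the rest, at 3519 and 3816 CPM against 4038 and 4057 CPM, ratios of 0.871 and 0.940. The list medians were -0.57 and -0.27, while the summed list was higher in members, at 101 and 108 UMIs per 10000 against 84.7 and 88.6. Il1r2, the decoy receptor for interleukin 1, was at 389 and 299 CPM against 71.4 and 74.0 CPM, ratios of 5.45 (4.93 to 6.01) and 4.04 (3.61 to 4.52).

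Chemokines divided by family member. Cxcl9, Cxcl16, Ccl5, Ccl17 and Ccl22 were past 1.5-fold higher in both libraries, among 16 measured. Ccl2, Ccl3, Ccl6, Ccl7, Ccl8, Ccl9, Ccl12 and Ccl24 were past 1.5-fold lower in both. Ccl22 had 7 UMIs in Control members, and its interval there (0.824 to 4.73) includes 1. Ccl2, the main attractant of CCR2+ monocytes, was at 160 and 232 CPM in Sitagliptin and Control members against 908 and 1154 CPM in the rest, and Ccl7, another CCR2 ligand, was at 187 and 191 CPM against 862 and 1014 CPM. Ccr2 itself was higher in members, at 281 and 185 CPM against 124 and 93.9 CPM. Ly6c2, a marker of inflammatory monocytes, was 1.96 and 1.94 times the rest, while Vcan and Fn1 of the same list were 0.418 and 0.581, and 0.505 and 0.580 times. Ccr2 was found in 104 Sitagliptin and 109 Control members, Ly6c2 in 47 and 45, and both in 28 and 34.

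Ccl5, a chemokine made by activated macrophages and T cells, was at 475 and 653 CPM in Sitagliptin and Control members against 123 and 148 CPM in the rest. A single member held 52 of 600 UMIs in the Sitagliptin library and 103 of 833 in the Control library, and without that member the ratios were 3.56 and 3.89 in place of 3.86 and 4.41. Ccl5 was found in 67 and 87 members, Cxcl9 in 104 and 120, and both in 52 and 60.

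Ccl17, a ligand of CCR4 made by dendritic cells and some macrophages, had the highest ratio of all 2991 genes ranked, at 340 and 70.5 CPM in Sitagliptin and Control members against 24.2 and 7.34 CPM in the rest. The ratios were 14.0 (12.4 to 15.8) and 9.61 (7.33 to 12.5). They rested on few barcodes: 20 Sitagliptin members held 429 UMIs, 170 of them in 1 barcode, and 14 Control members held 90, of which 37 were in 1 barcode. Without that barcode the ratios were 8.54 and 5.71. Of the members with Ccl17, 7 and 2 had a dendritic cell marker, 17 and 10 had Dcstamp, and 19 and 13 had Csf1r. Over all alternatives the ratio lay between 5.45 and 18.8 in Sitagliptin and 5.31 and 18.7 in Control.

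Other leading genes were spread over more members. Ly6i, a small surface protein of the Ly6 family, was at 181 and 180 CPM in Sitagliptin and Control members against 31.3 and 34.1 CPM in the rest, and was found in 77 and 90 members. Klrb1b, which encodes a lectin receptor of the NKR-P1 family, was at 230 and 134 CPM against 31.3 and 27.9 CPM, in 87 and 77 members. Klrk1 (NKG2D) was at 72.1 and 65.8 CPM against 16.8 and 15.9 CPM, in 55 and 57 members. The NK cell genes Ncr1 or Klrb1c had a UMI in 2 and 1 members, against 2.36% and 2.45% of the rest.

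Dcstamp, which serves cell fusion in osteoclasts and dendritic cells, was at 329 and 156 CPM in Sitagliptin and Control members against 51.5 and 43.2 CPM in the rest. Gpr171, a receptor coupled to G proteins, was at 166 and 137 CPM against 45.4 and 44.4 CPM, in 97 and 100 members. Tspan13, a tetraspanin, was 3.17 and 3.15 times the rest, and Tmem176b, an ion channel of the endosomes of presenting cells, 3.92 and 3.13 times. With H2-DMb1 and Ciita these genes make up the 12 leading ones.

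**Figure D3:**
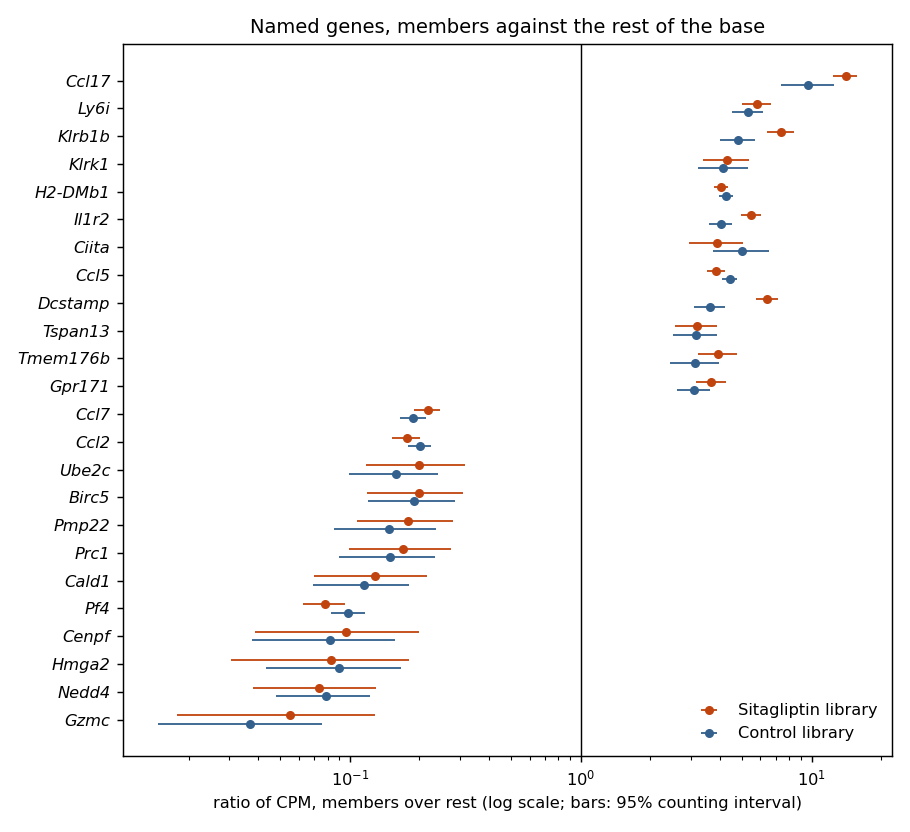
Ratio of CPM in members over the rest of the base on a log10 axis (x axis) for the 12 leading higher and 12 leading lower genes (y axis), with a point and 95% counting interval for the Sitagliptin and the Control library. The higher genes run from Ccl17 at 14.0 and 9.61 times to Gpr171 at 3.66 and 3.09 times, and all 12 lower genes lie left of 1 in both libraries.

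Complement and integrin genes outside the gate had list medians of 0.19 and 0.54. Of 10 measured genes, 6 were higher in both libraries, 3 of them past 1.5-fold, and 3 were lower in both, the receptors C3ar1 and C5ar1 and the integrin Itgam. C3, the central complement component, was at 150 and 196 CPM in Sitagliptin and Control members against 59.2 and 65.9 CPM in the rest. Cfb, factor B of the alternative pathway, was at 117 and 165 CPM against 43.6 and 41.2 CPM. Itgax, which encodes the integrin CD11c, was at 72.1 and 76.0 CPM against 26.2 and 23.5 CPM. Dpp4, the target of sitagliptin, had 20 and 19 UMIs in members, at 15.8 and 14.9 CPM against 2.99 and 3.50 CPM in the rest, and the ratios were 5.29 (3.09 to 8.63) and 4.25 (2.42 to 7.11). At 2000 UMIs per barcode Dpp4 was found in 3.14% and 2.80% of members, 1.07% and 1.11% of the rest and 0.309% and 0.0837% of tumour-like barcodes.

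Genes of the dendritic cell list were higher as well. Of 16 measured, Xcr1, Clec9a, Batf3, Ccl22, Ccl17, Ifi205 and Naaa were past 1.5-fold higher in both libraries and Fscn1 was lower, with list medians of 1.14 in Sitagliptin and 0.50 in Control. Clec9a, a receptor for dead cells on cross-presenting dendritic cells, had 30 and 20 UMIs in 21 and 10 members, of which 19 and 8 had Csf1r. It was 8.66 and 7.70 times the rest. Xcr1, the partner marker of that cell type, had 5 and 1 UMIs, and its interval in the Control library (0.0466 to 15.4) includes 1. So does the Control interval of Ccl22 (0.824 to 4.73).

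Cell cycle genes were lower in members, 17 of 20 past 1.5-fold in both libraries, with medians of -1.28 and -1.50. Mki67, a marker of dividing cells, was at 45.1 and 50.1 CPM in Sitagliptin and Control members against 152 and 169 CPM in the rest, and Top2a was 0.215 and 0.258 times. Birc5, Prc1, Cenpf and Ube2c, which act in mitosis, were among the 12 leading lower genes. Without barcodes carrying tumour, T cell or NK cell markers, Birc5 was 0.0415 and 0.225 times the rest and Prc1 0.0399 and 0.180 times, against 0.198 and 0.190, and 0.170 and 0.149 with them. The other leading lower genes included Gzmc, a granzyme of lymphocytes, with 5 and 7 UMIs in members and 2304 and 3152 in the rest, and Nedd4, Hmga2 and Cald1.

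Nedd4 was found in 90.4% and 91.9% of tumour-like barcodes of the Sitagliptin and Control library at 2000 UMIs per barcode, in 1.89% and 3.74% of members and in 15.5% and 23.6% of the rest. With barcodes carrying tumour, T cell or NK cell markers left out before the members were chosen, Nedd4 was 0.245 and 0.306 times the rest, against 0.0738 and 0.0787 with them. Hmga2 was then 0.280 and 0.366 times, against 0.0830 and 0.0901, and Gzmc 0.177 and 0.228 times, against 0.0551 and 0.0368. Pf4, Ccl2 and Ccl7 were then at 0.0505 and 0.0714, 0.158 and 0.165, and 0.164 and 0.126 times. The count of genes past 1.5-fold lower in both libraries was then 875, against 1530 of 10772 with them. Leaving out barcodes can also leave fewer genes with 50 UMIs, so the 2 counts are not shares of the same genes.

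To place the members along the score, the pooled base was divided into 20 bins of equal number by score, and each bin was read per library. Interferon gamma genes summed to 22.8 and 27.5 UMIs per 10000 in bin 1 of the Sitagliptin and Control library, 30.1 and 34.2 in bin 10, 48.9 and 47.4 in bin 19 and 55.9 and 53.7 in bin 20, which held all but 1 of the members. Resident-like genes summed to 43.5 and 52.2 in bin 1, 26.3 and 23.2 in bin 10, 11.7 and 11.2 in bin 19 and 9.17 and 10.9 in bin 20. Il1b was at 7.58 and 9.85 per 10000 in bin 1, 38.1 and 43.6 in bin 19 and 41.9 and 43.5 in bin 20. Bin 19, just below the members, already held most of the difference from bin 1 in these 3 measures.

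Dendritic cell genes were at 5.52 and 3.96 UMIs per 10000 in bin 19 and 8.02 and 4.36 in bin 20, after 1.52 and 1.34 in bin 1. Class II genes outside the rule were at 47.3 and 60.7 in bin 1, 46.3 and 48.8 in bin 10 and 69.3 and 70.2 in bin 20. Depth differed along the score: the median UMIs per barcode were 8873 and 8229.5 in bin 1, 3062 and 2839 in bin 10 and 7192 and 5251 in bin 20. Its part in the trends was not tested.

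**Figure D4:**
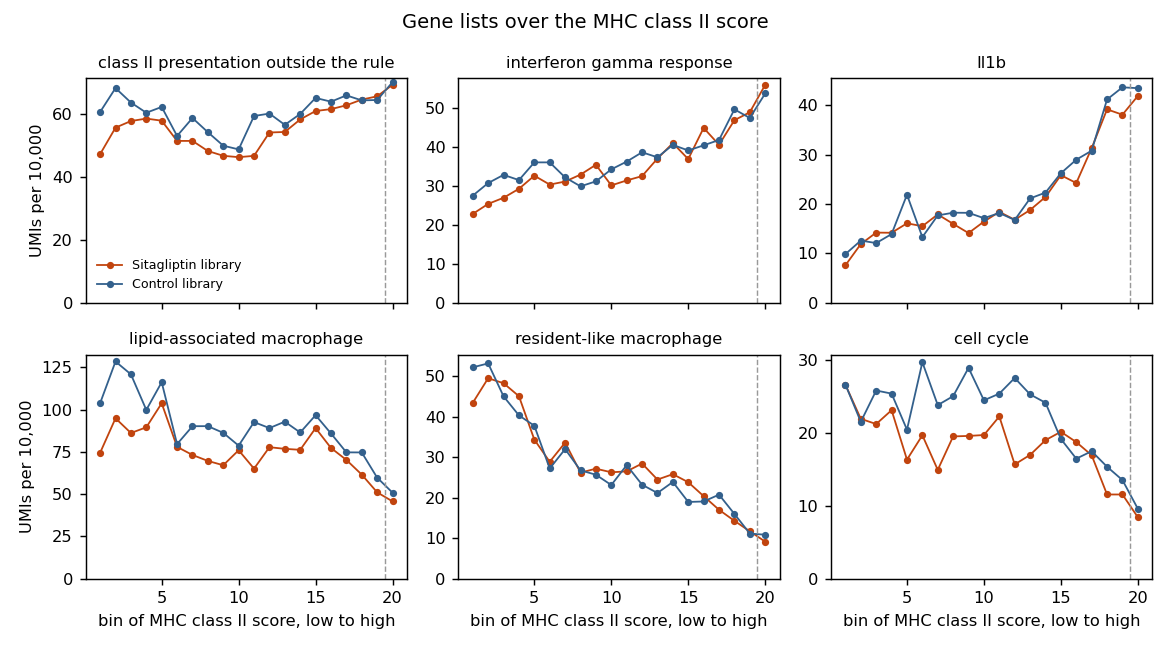
Summed UMIs per 10000 (y axis) of 5 gene lists and of Il1b across 20 bins of the base ordered by class II score (x axis), 1 line per library, with a dashed line before bin 20. Interferon gamma genes and Il1b are highest in the upper bins, and resident-like and cell cycle genes lowest there, in both the Sitagliptin and the Control library.

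Members were a smaller share of the base in the Sitagliptin library. They were 3.797% there (159 of 4187, exact interval 3.24 to 4.42) and 6.54% in the Control library (214 of 3271, 5.72 to 7.44), a ratio of 0.580 (0.475 to 0.709). The ratio depended on where in the score the base was divided, at 0.368 for the top 1%, 0.420 for the top 2.5%, 0.644 for the top 10%, 0.805 for the top 25% and 0.935 for the top 50%. It was 0.508 with barcodes carrying dendritic cell or B cell markers left out.

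The share also depended on depth. Of the 3 depth groups of the pooled base, the shallowest (2001 to 3854 UMIs) held 1.89% members in the Sitagliptin library (25 of 1320) and 5.06% in the Control library (59 of 1166), a ratio of 0.374 (0.236 to 0.594). The middle group (3855 to 8738 UMIs) held 5.56% (73 of 1314) and 10.1% (118 of 1172), a ratio of 0.552 (0.417 to 0.731). In the deepest group (8739 to 60863 UMIs) the shares were 3.93% (61 of 1553) and 3.97% (37 of 933), a ratio of 0.990 (0.664 to 1.48). The difference in share was thus not seen among the deepest barcodes.

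Within members, 186 of 5408 genes with at least 50 UMIs (3.44%) were over 1.5 times as high in the Sitagliptin library and 265 (4.9%) were lower by that much. In the rest of the base the shares were 1.86% and 4.39% of 12191 genes. The median log2 ratio over all genes was -0.05 in members. Class II genes outside the rule had a median of -0.07 and interferon gamma genes -0.03, close to that value. Resident-like genes had a median of -0.34, with 6 of 8 lower, 4 of them past 1.5-fold, while the rest of the base had a median of 0.33 with 11 of 14 higher. Cell cycle genes had a median of -0.26, lipid-associated genes -0.21 and type I interferon genes -0.19, against -0.33, -0.16 and -0.03 in the rest. The 4 scored genes had similar CPM in the members of both diets. The same threshold on their sum chose both sets of members, so no diet result is read from this.

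Complement genes had a median of -0.31, with 8 of 8 lower in the Sitagliptin library but none past 1.5-fold. In the rest of the base the median was 0.03, with 5 of 10 lower. General macrophage genes had a median of -0.22, with 12 of 14 lower, against -0.03 in the rest. Dendritic cell genes had a median of 0.34, with 9 of 9 measured genes higher, 4 of them past 1.5-fold. The rest had a median of 0.20, with 12 of 16 higher, 2 of them past 1.5-fold. Some of the 9 were close to 1 in members, such as Batf3 at 1.01 (0.557 to 1.83) and Ifi205 at 1.06 (0.855 to 1.31). The interval of Clec9a (0.833 to 2.82) includes 1 as well. These values stand beside the 18.9% and 5.61% of members with a dendritic cell marker given above. MHC class I genes were lower in both populations, 14 of 15 each, with medians of -0.21 in members and -0.27 in the rest. Over all 7617 genes with at least 20 UMIs in members, 55.8% were lower and 44.2% higher in the Sitagliptin library. The rest of the base leaned further the same way, with 64.3% of its 13815 genes below the Control level and 35.7% above it. Its log2 ratio over all genes had a midpoint of -0.09. Counts of direction in members and in the rest thus have different backgrounds. The number of lists above and below 0 changed with the way members were chosen.

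Of the 10 genes with the highest ratio, Zbed5 had 132 UMIs in Sitagliptin members and 0 in Control members. That is at least 44.5-fold higher, with the Control sum set at the floor of 3 counts. The rest of the base had the same contrast, with 3995 and 26 UMIs, 101 times. Over the alternatives the ratio in members lay between 24.8 and 129.5. Ccl17 was at 340 CPM in Sitagliptin members and 70.5 in Control members, 4.82 times (3.83 to 6.12), and 3.30 times in the rest. With a stricter C1q minimum of 20 UMIs per 10000 it was 1.71 times in members.

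Ear2, an eosinophil-type ribonuclease gene also made by some macrophages, was at 88.7 CPM in Sitagliptin members and 14.1 in Control members, 6.29 times (3.802 to 11.0), against 1.23 times in the rest. The 112 UMIs were in 17 Sitagliptin members and the 18 UMIs in 6 Control members. Dcstamp was at 329 and 156 CPM, 2.11 times (1.78 to 2.51), against 1.19 times in the rest. Tnfrsf9, the costimulatory receptor 4-1BB, was at 95.8 and 41.5 CPM, 2.31 times (1.66 to 3.25), against 0.866 times in the rest. Tmco1, Fgf13, Atp5k and Pkib were 2.35, 2.22, 1.95 and 1.95 times as high, against 1.48, 1.28, 1.91 and 1.14 in the rest.

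Hist1h2ae, 1 of many near-identical histone genes and so uncertain, was 2.80 times as high in Sitagliptin members. A single member held 40 of 108 UMIs in that library, and a single one 23 of 39 in the Control library. Without barcodes carrying dendritic cell or B cell markers the ratio was 0.511, and with the stricter C1q minimum 0.673, so its direction did not hold.

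Among the 10 genes with the lowest ratio, Ccl4, a chemokine, was at 137 CPM in Sitagliptin members and 336 in Control members, 0.408 times (0.340 to 0.487), while the rest of the base gave 0.986. It was found in 46 of 159 and 67 of 214 members. Inhba, which encodes a subunit of activin, was at 162 and 303 CPM, 0.535 times (0.450 to 0.636), against 0.866 in the rest. Ifit2, an interferon-induced antiviral gene, was at 31.7 and 75.2 CPM, 0.421 times (0.284 to 0.615), against 1.39 in the rest. Il1a and Mmp13 were 0.4999 and 0.444 times, against 0.830 and 1.02 in the rest. Dhrs1, Akr1b3, Apobec3, Cd38 and Plekhj1 lay between 0.521 and 0.558 times. Several of these differences depended on how the members were chosen. Over the alternatives the ratio reached 0.747 for Ccl4, 0.847 for Il1a, 0.857 for Mmp13, 0.801 for Akr1b3, 0.847 for Plekhj1, 0.738 for Dhrs1 and 0.706 for Cd38, all short of 1.5-fold. Of the higher genes, Tnfrsf9, Fgf13 and Pkib came down to 1.35, 1.28 and 1.44 times.

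Of the other genes that set the members apart from the rest, Cxcl9 was 1.47 times as high in Sitagliptin members as in Control members, and 1.34 times in the rest. Klrb1b was 1.72 times, against 1.12 in the rest, and Ccr2 1.52 times, against 1.32. Ccl5 was 0.728 times, against 0.833. Dpp4 was 1.06 times (0.539 to 2.11), a range too wide to show a difference at this depth.

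**Figure D5:**
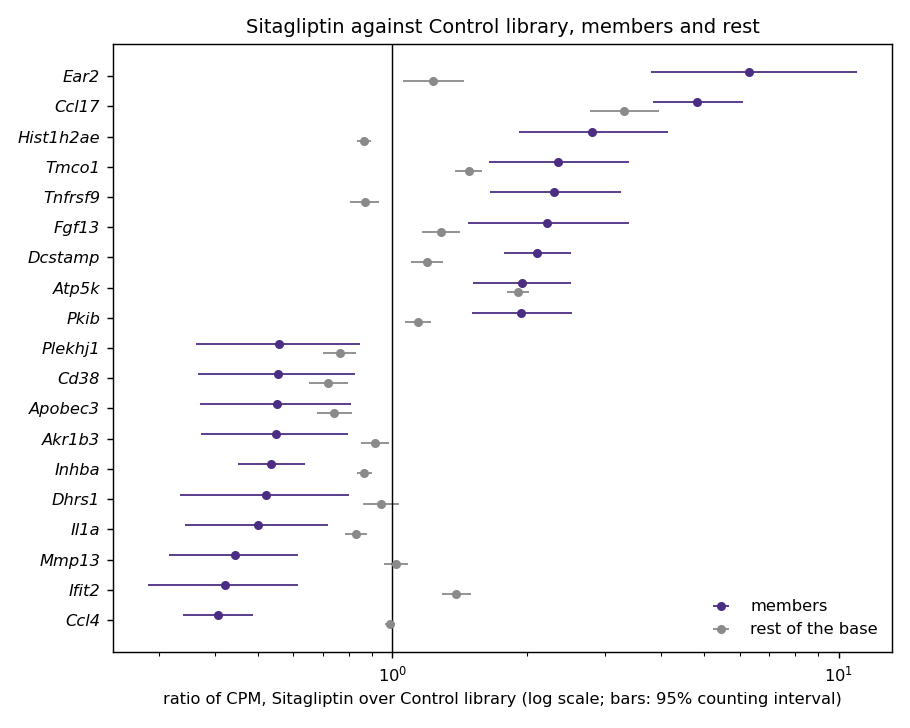
Ratio of CPM, Sitagliptin over Control, on a log10 axis (x axis) for the 10 genes with the highest and the 10 with the lowest ratio in members, without Zbed5 (y axis), with a point and 95% counting interval for members and for the rest of the base. Ear2 is at 6.29 in members and 1.23 in the rest, and Ccl4 at 0.408 and 0.986, while Atp5k lies at 1.95 and 1.91.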

How the data were processed

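Single CD45+ cells of MC38-OVA tumours were profiled by 5′ droplet RNA sequencing in 2 libraries, 1 per diet, per the labels. The authors deposited a matrix of whole-number counts per gene and barcode for each library, taken here as UMIs over 32285 features; the sources used here do not state the aligner, genome build, strand setting or cell filter. The members and all gene lists were chosen with earlier results of these data known.

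Barcodes were gated and scored on raw counts as described, and UMIs were summed per library over members and over the rest. CPM is a sum per 1000000 UMIs of that set. Ratios carry exact conditional binomial 95% intervals, shares Clopper-Pearson intervals, and ratios of shares Katz intervals. A sum of 0 was set to a floor of 3 counts. With 1 library per diet no p-value was computed. List medians and counts within lists used genes with at least 20 UMIs over the 2 sets compared, and counts over all genes past 1.5-fold used at least 50. The 4 scored and 9 gate genes stayed out of both. 

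Named genes were the 12 highest and 12 lowest by the weaker library's ratio, members against the rest (at least 100 UMIs per library and 50 CPM), and the 10 highest and 10 lowest between diets within members, leaving out mitochondrial, ribosomal, haemoglobin, receptor and sex-linked genes and predicted loci. All class II genes outside the rule and 2 to 4 genes of other lists were also named. A few genes of these lists are not reported here.

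For shares of barcodes with a UMI, barcodes were thinned to 2000 UMIs; none was shallower. Tumour-like barcodes had no Ptprc and at least 3 UMIs of Sparc and Cald1. Scrublet's automatic threshold marked 0% of barcodes, so doublets were not removed; the 6% with the highest scores were left out as an alternative, and they held 2.52% of Sitagliptin and 3.27% of Control members. The 12 alternatives listed first changed the score, the share kept, the scaling (edgeR TMM factors among them), the minimum or the barcodes admitted. 3 were added after seeing the data: a C1q minimum of 20 per 10000, a minimum of 1000 UMIs in the base of each library, and leaving out barcodes with tumour, T cell or NK cell markers. The ratios and intervals were tested on simulated data. Python 3.11.15, numpy 2.4.6, scipy 1.17.1, pandas 2.3.3, scanpy 1.11.5, R 4.3.3 and edgeR 4.0.16 were used.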

Additional observations from a re-analysis of the deposited data

Results flagged for a closer look

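The genes described here had ratios on opposite sides of 1 in the sets compared, with both counting intervals clear of 1 and at least 1 ratio past 1.5-fold, among the named and listed genes. None of these differences was tested, since each set comes from 1 library per diet.

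Sitagliptin over Control differed in direction between members and the rest for 7 genes. Ifit1 was 0.295 in members and 1.30 in the rest, and Ifit2, of the same antiviral family, 0.421 and 1.39. Igf1, a growth factor of resident-like macrophages, was 0.112 on 1 and 9 UMIs in members and 1.22 in the rest, and F13a1 0.577 and 1.05. Without the highest member of each library Igf1 was 0.604 in members, with an interval (0 to 1.10) that includes 1. Cd36, a lipid scavenger receptor, was 1.57 and 0.928, Hist1h2ae 2.80 and 0.865, and Tnfrsf9 2.31 and 0.866. The direction of Hist1h2ae in members did not hold over the alternatives, as given above.

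Members over the rest differed in direction between libraries for 5 genes. Ifit2 was 0.473 in the Sitagliptin library and 1.56 in the Control library. Tnfrsf9 was 1.80 and 0.676, Mmp13, a collagenase, 0.527 and 1.21, and Lyz1, a lysozyme, 1.56 and 0.360. Without the highest member Mmp13 was 1.07 (0.871 to 1.30) in the Control library, an interval that includes 1. Of the 28 Lyz1 UMIs in Sitagliptin members 27 were in 1 barcode, and without the highest barcode of each library the ratios were 0.0561 and 0.0905, both lower. Zbtb46, a transcription factor of dendritic cells, was 2.67 in the Sitagliptin library and 0.709 in the Control library, where members had 0 UMIs set at the floor of 3 counts and the interval reached 0.896.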

How the results depend on the processing

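No paired analysis was possible because each diet has 1 library, and leaving out a replicate was not possible for the same reason. Over 15 alternatives, 685 single-gene values, 909 list medians and 128 summary values moved by less than their counting spread or kept to within 1.5 times, and 126, 25 and 18 moved by more. The share ratio of 0.580 was 0.420 with the top 2.5%. Genes past 1.5-fold higher in both libraries (374) were 654 with no minimum and 134 with at least 1000 UMIs, and genes lower in both (1530) were 875 without barcodes carrying tumour, T cell or NK cell markers and 218 with at least 1000 UMIs. Between diets within members, genes past 1.5-fold higher (186) were 75 with at least 100 UMIs and 1177 with no minimum. Lower ones (265) were 71 and 1515. The genes tested change with the minimum and with the barcodes left out, so these counts are not shares of the same genes. Lists with a diet median above 0 (4) were 10 with the top 2.5%, 7 with the thinned score, 9 with the top 5% within each library, 8 with the stricter C1q minimum, 9 without tumour, T cell or NK cell markers and 7 with TMM factors. Lists below 0 (18) were 9 with the top 2.5% and 10 without those markers. Named diet genes past 1.5-fold (20) were 10 with the top 10%. The cause was not tested.

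Signs turned for few values (log2). The neutrophil list was 0.65 and 0.25 in the Sitagliptin library, and 1.30 and 0.81 between diets, with the top 10% and with the top 5% within each library. The B cell list was 0.33 in the Control library without dendritic cell or B cell markers. The tumour and stroma list was 0.10 and 1.97 in the 2 libraries without tumour, T cell or NK cell markers, which removes its own genes. Hist1h2ae between diets was -0.97, -0.57 and -0.68 without dendritic cell or B cell markers, with the stricter C1q minimum and without tumour, T cell or NK cell markers. TMM factors moved the all-gene medians of members against the rest to -0.02 and -0.03, and that between diets to 0.01.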

Other observations

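Glycolysis and hypoxia genes lay near the median of all genes in members, at -0.09 and -0.22 log2 in the Sitagliptin and Control library, and 1 of 18 measured genes, Egln3, was past 1.5-fold lower in both. Genes of the dissociation stress response had medians of -0.22 and -0.05, with Jun, Egr1 and Hspa1a past 1.5-fold lower in both libraries. The DPP4 family had medians of -0.03 and -0.05, and of its 8 measured genes Dpp4 alone was past 1.5-fold higher in both. Epcam, an epithelial gene, had 8 and 7 UMIs in members, 4.84 and 5.52 times the rest, while the other genes of the tumour and stroma list that had a ratio in both libraries were past 1.5-fold lower. The list had 5 such genes. Nlrp3, the inflammasome sensor that serves interleukin 1 beta release, was 1.62 and 1.35 times the rest. Other lists had medians of 0.20 and 0.03 (plasmacytoid dendritic cell), -0.99 and -0.20 (neutrophil), -0.93 and -1.17 (T cell and NK cell), -1.58 and -1.64 (B cell), -0.17 and 0.19 (monocyte) and 0.17 and 0.50 (alternative activation).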
